A study of Mus musculus with 6 samples.

Results

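The genes described here encode the proteins of the mitochondrial ribosome. They were taken as every row of the deposited gene table whose symbol begins with Mrpl or Mrps followed by a digit, which gave 78 of 22063 genes. Of these, 49 carry the Mrpl symbol of the large subunit and 29 the Mrps symbol of the small subunit. RNA was sequenced from mouse cardiac fibroblasts with floxed Tet3 alleles that had received an adenovirus. The groups are GFP (3 libraries, labelled as control) and CRE (3 libraries, labelled as Tet3 knockout). The reagent list of the study gives a fluorescent protein in both viruses, and the CRE virus carried in addition Cre recombinase, which cuts out floxed DNA. TGF-β, which drives fibroblasts towards myofibroblasts that lay down matrix, was given to all 6 samples. CRE against GFP asks which transcripts depend on TET3, an enzyme that oxidises methylated cytosine in DNA, in treated cells. CRE cells differ from GFP cells in the presence of Cre as well as in Tet3, so a response to Cre itself cannot be told apart from loss of Tet3. The study calls the samples of a group biological replicates. The age of the mice, how many gave cells and whether replicates were separate animals or separate cultures are not given in the sources used here, so p-values measure the spread between these libraries, which may be in part technical.

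The mitochondrial ribosome sits in the matrix and makes the few proteins that mitochondrial DNA encodes, all of them core subunits of the respiratory chain and the ATP synthase. Its RNA comes from mitochondrial DNA, whereas every one of its proteins is encoded in the nucleus, made in the cytosol and imported. Some of these proteins descend from the bacterial ribosome and others were added in the mitochondrial lineage. The heart depends on this machinery, and inherited defects in several members cause cardiomyopathy.

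Short stretches of DNA before the RefSeq start of 7 members are shown because their transcripts differed between the groups, and for 5 of them because they hold motif matches counted further on. They come from RefSeq (GRCm38.p6), which gave a promoter for 69 of 78 members, are written 5′ to 3′ on the strand of the gene, and lie outside every exon annotated in GENCODE M21, although the stretches of Mrpl46 and Mrpl23 are inside the span of the gene as GENCODE annotates it. Mrpl4, Mrpl13, Mrpl15, Mrpl19, Mrpl38, Mrpl54, Mrps28, Mrps34 and Mrps35 had no entry. Capitals mark a match, on either strand, to one of the motifs searched: CCGGAAG for ETS factors such as GABP, GCGCA, any base and GCGC for NRF1, GGGCGG for SP factors and CCAAT for NF-Y. The first stretch, at chr19:6057786-6057843 on the minus strand, is the whole gap of 58 bases between the annotated starts of Mrpl49 and its divergent neighbour Fau.
Mrpl49: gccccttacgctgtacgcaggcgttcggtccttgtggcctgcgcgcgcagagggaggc
The second, of 29 bases at chr7:78783090-78783118 on the minus strand, runs from the RefSeq start of Mrpl46 to the first base of Mrps11, a member on the opposite strand.
Mrpl46: gcccctcgccggcccgcgttgcctcatgg
Before the starts of Mrps22 (chr9:98601680-98601799, minus strand) and of Mrpl43 (chr19:45006443-45006557, minus strand) the capitals are ETS matches, 1 and 2 in number.
Mrps22: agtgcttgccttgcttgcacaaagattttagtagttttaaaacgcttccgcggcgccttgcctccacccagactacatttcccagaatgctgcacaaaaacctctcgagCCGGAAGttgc
Mrpl43: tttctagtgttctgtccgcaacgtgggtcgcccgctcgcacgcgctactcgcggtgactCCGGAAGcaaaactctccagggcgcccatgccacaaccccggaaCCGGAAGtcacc
Those 4 genes were higher in CRE. Each of them has GGGCGG in the longer window searched further on, outside the bases printed here. The printed stretches therefore do not compare motifs between genes that rose and genes that fell. The next 3 were lower: Mrpl23 (chr7:142532892-142533011, plus strand) has 2 SP matches, Mrps36 (chr13:100744660-100744779, minus strand) has SP matches and an inverted CCAAT, and Mrpl45 (chr11:97315596-97315715, plus strand) has 2 NRF1 matches.
Mrpl23: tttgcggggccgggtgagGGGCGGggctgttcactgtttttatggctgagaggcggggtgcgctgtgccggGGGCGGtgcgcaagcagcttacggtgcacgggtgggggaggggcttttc
Mrps36: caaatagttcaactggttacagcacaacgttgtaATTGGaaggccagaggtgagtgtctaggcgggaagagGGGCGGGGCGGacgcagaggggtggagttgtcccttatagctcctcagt
Mrpl45: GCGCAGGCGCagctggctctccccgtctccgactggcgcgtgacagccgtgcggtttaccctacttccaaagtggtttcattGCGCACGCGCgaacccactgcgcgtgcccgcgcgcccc

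Total counts were between 17002126 and 20343590 per library. Tet3 itself fell to 60.8% of its GFP level in CRE (log2 fold change -0.72, SE 0.08, edgeR adjusted p = 5.36e-05), with counts of 965 to 1044 in GFP and 637 to 649 in CRE. These counts cover the whole gene, so they do not separate intact transcripts from any that the cut allele still makes. Of 12 fibroblast markers, 10 were lower in CRE, and their summed level was 41269 to 42619 CPM in GFP and 22718 to 24791 CPM in CRE, where CPM is the read count scaled to library size. No cardiomyocyte marker of 12 had enough reads to be tested (summed level 0.90 to 1.19 CPM in GFP and 1.21 to 1.77 in CRE), and Myh6 and Myl7 had 0 reads in every library, which allows up to 3 reads (counting error only). Endothelial markers were lower in CRE for 9 of 10 (405 to 452 CPM against 195 to 226), and macrophage markers for 3 of 6 tested (59.0 to 66.8 CPM against 34.9 to 38.2). Of 10 markers of smooth muscle cells and pericytes, 5 were lower and 1 was higher (175 to 194 CPM against 143.0 to 163). The part of these shifts in the results for the mitochondrial ribosome was not tested, and fewer cells of a type and less RNA per cell cannot be told apart in bulk RNA.

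All 78 members had enough reads to be tested, with between 57 and 1001 reads per gene and library. Of these, 19 were higher in CRE, 9 were lower and 50 did not pass the test (edgeR adjusted p under 0.05 over 12862 tested genes). Over the deposited genes as a whole, 25.5% of those tested were higher and 25.7% lower, so the share of members that rose (24.4%) was close to the background and the share that fell (11.5%) was below it. The median log2 fold change of the members was 0.090, beside 0.0052 over all tested genes. Individual changes were small, between -0.95 for Mrps28 and 0.62 for Mrpl49, with a median absolute change of 0.15 beside 0.25 over all tested genes. Scaling decides part of this split. When libraries were scaled by their total alone, the median of all tested genes moved to 0.17 and that of the members to 0.25, and 42 members passed as higher (background 43.0%) and 3 as lower (background 16.2%). With limma on log2(FPKM + 1), which lacks the TMM factors too, 43 passed as higher (background 38.7%) and 4 as lower (background 14.9%). At an adjusted p under 0.01 the count test left 10 higher and 6 lower (background 17.6% and 19.3%). Values per group did not overlap for 23 members that were higher in CRE and 14 that were lower, where the background was 30.0% and 29.6% of tested genes.

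**Figure D1:**
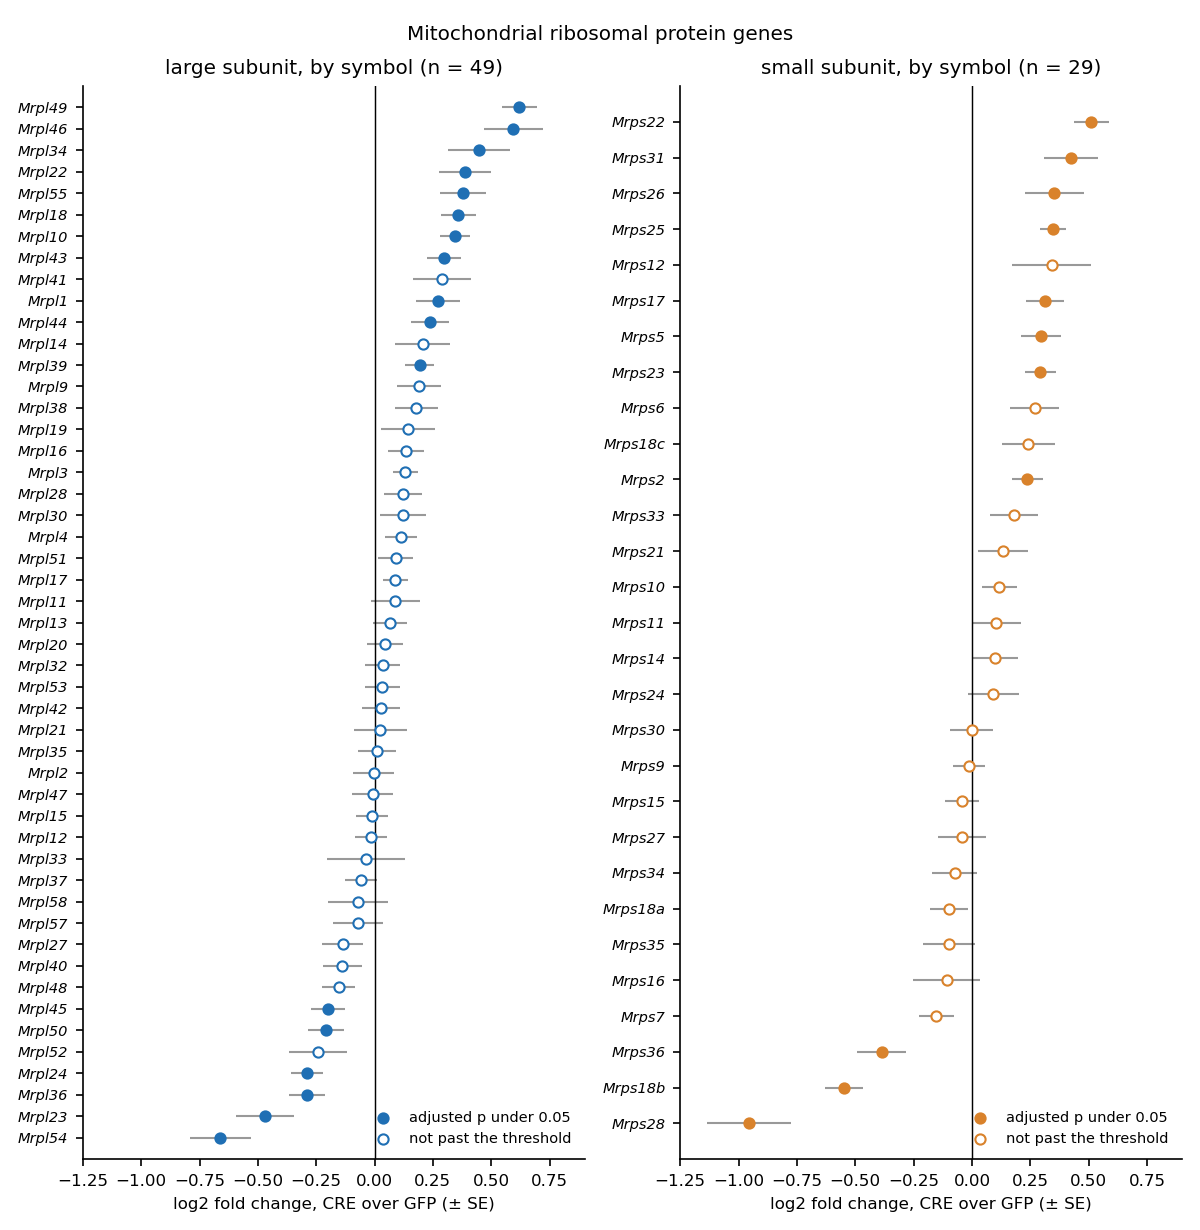
Log2 fold change of CRE over GFP (x axis, with its SE) for each member, large subunit on the left and small subunit on the right. Filled points passed the test at an adjusted p under 0.05, and the values run from -0.95 for Mrps28 to 0.62 for Mrpl49.

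Both subunits had members that rose and members that fell. Among the 49 Mrpl genes, 11 rose (22.4%) and 6 fell (12.2%), with a median log2 fold change of 0.066. Among the 29 Mrps genes, 8 rose (27.6%) and 3 fell (10.3%), with a median of 0.10. Both shares that rose were near the 25.5% of all tested genes, and both that fell were below the 25.7%. The difference of the medians, large minus small, was -0.039, and it was -0.070 without CRE replicate 3 and -0.097 with the length and GC offset. Within each library the ratio of summed Mrpl reads to summed Mrps reads, which scaling cannot alter, was 1.82 (replicate 1), 1.77 and 1.78 under GFP, compared with 1.78 (replicate 1), 1.71 and 1.71 under CRE. Those ranges overlap, because CRE replicate 1 lies above GFP replicates 2 and 3, and the group means were 1.79 ± 0.026 and 1.74 ± 0.041 (SD, n = 3). Structural work has placed Mrps18a and Mrps30 in the large subunit and Mrps36 in neither, and with that assignment the medians were 0.045 for 51 large subunit genes and 0.13 for 26 small subunit genes, a difference of -0.080. The ratio of summed reads was then 2.01 to 2.09 in GFP and 1.91 to 1.99 in CRE, without overlap.

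**Figure D2:**
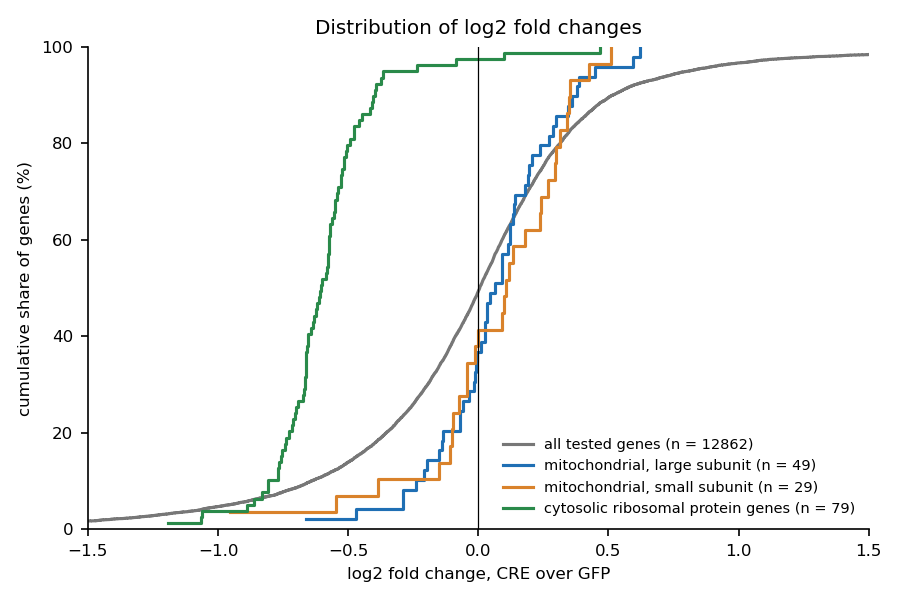
Cumulative share of genes (y axis, %) by log2 fold change of CRE over GFP (x axis), for all tested genes, both subunits of the mitochondrial ribosome and the cytosolic ribosomal protein genes. The mitochondrial lines lie near 0, with medians of 0.066 and 0.10, while the cytosolic line has its median at -0.60.

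Reads of the 78 members made up 0.138%, 0.135% and 0.144% of all counts in GFP and 0.164%, 0.164% and 0.168% in CRE, so the groups did not overlap. Such shares lack the TMM factors, and with library size alone 43.0% of all tested genes passed as higher in CRE. After TMM scaling, the summed level was 1427 to 1516 CPM in GFP and 1539 to 1584 CPM in CRE. Most cytosolic ribosomal protein genes were lower in CRE. Of 79 tested genes named Rpl or Rps, 74 fell (93.7%, beside 25.7% of all tested genes) and 1 rose (1.27%, beside 25.5%). Their median log2 fold change was -0.60, and their share of all counts was 2.34% to 2.66% in GFP and 1.67% to 1.88% in CRE. The gene that rose is Rps19bp1 (log2 fold change 0.47), which encodes a protein that binds a ribosomal protein and is not one itself.

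Mrps28, which encodes the small subunit protein bS1m, had the lowest log2 fold change of the set. Its level was 6.84, 6.20 and 8.46 CPM in GFP and 4.46, 3.65 and 3.01 CPM in CRE. Every CRE library lay below every GFP library, with 57 to 83 reads against 110 to 163. CRE retained 51.7% of the mean in GFP (log2 fold change -0.95, SE 0.18, edgeR adjusted p = 0.0014). The gene lies on the minus strand of chromosome 3 (chr3:8802146-8923918, GRCm38).

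Mrpl54, a large subunit protein without a bacterial counterpart, stood at 13.7, 13.2 and 17.2 CPM in GFP and at 10.04, 8.02 and 9.87 CPM in CRE. GFP replicate 3 was the highest library, and the groups did not overlap without it. The log2 fold change was -0.66 (SE 0.13, edgeR adjusted p = 0.0019). Its start on chromosome 10 (chr10:81264713-81266934) lies 26 bases from that of the divergent gene Apba3 (-0.22, SE 0.07, adjusted p = 0.021). Apba3 kept its call in 11 of 18 alternatives. It was lost with the same sign in 5, among them the fits without GFP replicate 1 (adjusted p = 0.060) or CRE replicate 1 or 2 (0.086 and 0.057). In the other 2, limma on FPKM with either pseudocount, the sign changed.

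Mrps18b encodes one of 3 paralogs related to the bacterial protein S18 and gave 25.05, 21.02 and 23.5 CPM in GFP and 15.5, 15.8 and 16.3 CPM in CRE. The CRE libraries were close together and all below the GFP libraries (log2 fold change -0.55, SE 0.08, edgeR adjusted p = 0.00034). Its paralogs did not pass, and their difference from Mrps18b was not tested. Mrps18a, whose product sits in the large subunit, had a log2 fold change of -0.098 (SE 0.08, adjusted p = 0.33). Its groups did not overlap either, with 13.7 to 14.2 CPM in GFP and 12.7 to 13.2 CPM in CRE. Mrps18c, the small subunit protein closest to bacterial S18, had a log2 fold change of 0.24 (SE 0.11, adjusted p = 0.10). Mrps18c passed in 6 of 19 fits, among them that without GFP replicate 3 (0.34, adjusted p = 0.046). The divergent neighbour of Mrps18b, the phosphatase regulator gene Ppp1r10, starts 45 bases away and was at 59.4 ± 3.64 CPM in GFP and 61.6 ± 4.003 CPM in CRE (SD, n = 3). Mrps18b also shares exonic bases with the antisense gene Gm16279, and whether counting used the strand is not stated.

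The other members that fell did so by less. Mrpl23, whose product lines the rim of the tunnel through which the new protein leaves, had a log2 fold change of -0.47 (SE 0.12, edgeR adjusted p = 0.0099), and lost the call with library size alone (-0.31, adjusted p = 0.055). Mrps36 fell by 0.39 on the log2 scale (SE 0.11, adjusted p = 0.011), from 13.7 ± 1.32 to 10.5 ± 0.84 CPM (SD). Its product is now known as a component of the α-ketoglutarate dehydrogenase complex of the citric acid cycle and not of the ribosome. Its call was lost without GFP replicate 3 (log2 fold change -0.31, adjusted p = 0.053), with library size alone (-0.22, adjusted p = 0.093) and with limma on FPKM (adjusted p of 0.066 and 0.068). Mrpl36 and Mrpl24 both had a log2 fold change of -0.29, with adjusted p of 0.0098 and 0.0057, and share exonic bases with Ndufs6 and Rrnad1 on the opposite strand. Both passed in every fit without 1 library, but lost the call with library size alone and with limma on FPKM. Library size alone gave -0.13 for each (adjusted p of 0.18 and 0.14) and limma on log2(FPKM + 1) -0.11 and -0.089 (0.14 and 0.25). Mrpl36 lost it with the length and GC offset as well (-0.20, adjusted p = 0.055). Mrpl50 (-0.21) and Mrpl45 (-0.20), the latter encoding a protein that helps to tie the ribosome to the inner membrane, passed with adjusted p of 0.042 and 0.043, and each lost the call in 4 of the fits without 1 library. For Mrpl50 those were the fits without GFP replicate 1 or 2 or without CRE replicate 1 or 2 (adjusted p of 0.086, 0.10, 0.093 and 0.15). For Mrpl45 they were the fits without GFP replicate 1 or 3 or without CRE replicate 1 or 2 (0.13, 0.081, 0.13 and 0.12). In all, Mrpl50 lost the call in 12 and Mrpl45 in 11 of 18 alternatives. Mrpl52 stood at 12.1 to 16.0 CPM in GFP and 10.8 to 13.3 CPM in CRE, and its log2 fold change of -0.24 did not pass (adjusted p = 0.13).

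**Figure D3:**
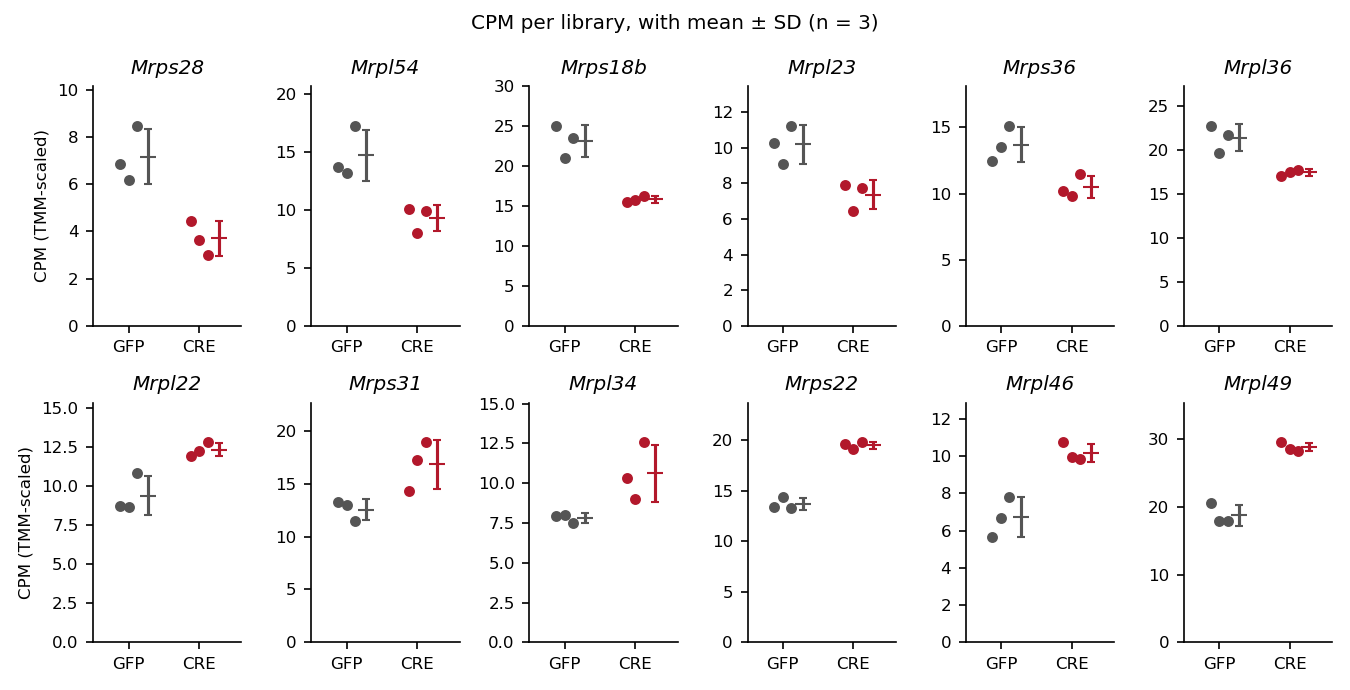
CPM per library (points) with the group mean and SD (bars, n = 3) for the 6 lowest and the 6 highest log2 fold changes among the members that passed the test. In each panel the GFP and CRE libraries do not overlap, as for Mrpl49 with 17.9 to 20.6 CPM against 28.3 to 29.5 CPM.

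Mrpl49 had the highest log2 fold change of the set. It encodes a large subunit protein added in the mitochondrial lineage, and gave 20.6, 17.9 and 17.9 CPM in GFP and 29.5, 28.6 and 28.3 CPM in CRE. The gap between the groups was wider than the spread within either of them, with 318 to 344 reads against 517 to 550. CRE reached 153% of GFP (log2 fold change 0.62, SE 0.07, edgeR adjusted p = 7.16e-05). Across the 58-base gap printed above lies Fau, which encodes a cytosolic ribosomal protein fused to a ubiquitin-like protein. Fau fell from 131 ± 9.30 to 99.1 ± 7.90 CPM (log2 fold change -0.40, SE 0.07, adjusted p = 0.00070), so the transcripts of this divergent pair went in opposite directions. Mrpl49 shares exonic bases with Syvn1 on the other strand.

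Mrpl46 and Mrps22 came next. Mrpl46, a protein of the central protuberance at the top of the large subunit, was at 5.66, 6.70 and 7.79 CPM in GFP and at 10.7, 9.96 and 9.87 CPM in CRE (log2 fold change 0.59, SE 0.13, edgeR adjusted p = 0.0030). Its exons overlap those of Mrps11 on the opposite strand of chromosome 7, for 173 bases. Mrps11 itself, with 10.1 to 12.7 CPM in GFP and 12.4 to 13.3 CPM in CRE, overlapped between the groups (0.10, SE 0.11, adjusted p = 0.44), although it passed with limma on FPKM (adjusted p of 0.043 and 0.045). Mrps22, a small subunit protein without a bacterial counterpart, rose from 13.4, 14.4 and 13.3 CPM to 19.7, 19.1 and 19.8 CPM (0.51, SE 0.08, edgeR adjusted p = 0.00030). Within each group the libraries lay within about 1 CPM of each other.

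A further 16 members rose, with log2 fold changes from 0.19 (Mrpl39) to 0.45 (Mrpl34). Mrpl34 went from 7.48 to 8.001 CPM in GFP to 9.02 to 12.6 CPM in CRE, but lost the call without GFP replicate 3 (0.41, adjusted p = 0.059) or CRE replicate 3 (0.31, adjusted p = 0.064). Mrps31, a small subunit protein of the mitochondrial lineage, rose by 0.43 (SE 0.12, edgeR adjusted p = 0.011), with 11.4 to 13.2 CPM in GFP and 14.3 to 18.9 CPM in CRE. Mrpl22, which together with Mrpl23 and Mrpl24 surrounds the exit tunnel, rose by 0.39 (adjusted p = 0.014). Mrpl55 and Mrpl18 followed at 0.38 and 0.36. Mrpl18 belongs to the central protuberance, where its bacterial relative binds an RNA that the mammalian mitochondrial ribosome has replaced with a tRNA. In 18 alternatives the call of Mrps26 was lost in 9, that of Mrpl44 in 8, those of Mrpl1 and Mrpl39 in 5 each, that of Mrps5 in 4 and that of Mrps23 in 2. Among these, the calls of Mrpl1, Mrpl39, Mrpl44, Mrps26 and Mrps5 were lost in at least 1 of the fits without a library. Mrpl44 had adjusted p of 0.099, 0.051 and 0.063 without GFP replicate 1, 2 or 3 and 0.10 and 0.081 without CRE replicate 1 or 2. For Mrps26 the adjusted p was 0.057 and 0.13 without GFP replicate 1 or 2 and 0.075, 0.12 and 0.059 without CRE replicate 1, 2 or 3. Mrpl1 gave 0.093 and 0.096 without GFP replicate 1 or 3 and 0.073 and 0.13 without CRE replicate 1 or 3. Mrpl39 gave 0.052 and 0.078 without GFP replicate 2 or 3 and 0.068 and 0.076 without CRE replicate 1 or 3, and Mrps5 gave 0.061 and 0.051 without CRE replicate 1 or 3. With all libraries kept, DESeq2 gave 0.14 for Mrpl44, 0.070 for Mrps26, 0.080 for Mrpl1 and 0.11 for Mrpl39, the length and GC offset 0.059 for Mrps26, and limma on log2(FPKM + 1) 0.060 for Mrps5 and 0.053 for Mrps23.

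By place in the ribosome, calls in both directions occurred at the peptide exit tunnel. Each place holds few members, and over all tested genes 25.5% rose and 25.7% fell, so nothing is read from these counts. Of 6 proteins at or near the peptide exit tunnel, Mrpl23, Mrpl24 and Mrpl45 fell, Mrpl22 and Mrpl44 rose, and Mrpl47 was at -0.0082 (adjusted p = 0.95). Of 5 central protuberance proteins, Mrpl46 and Mrpl18 rose, and Mrpl38, Mrpl40 and Mrpl48 did not pass. In the stalks that receive translation factors and move the tRNA, Mrpl10 rose by 0.35 (SE 0.06, edgeR adjusted p = 0.0012) and Mrpl1 by 0.27 (adjusted p = 0.034). Mrpl12, which binds Mrpl10, was at 23.8 to 26.7 CPM in GFP and 24.1 to 25.5 CPM in CRE, and Mrpl11 at the stalk base at 17.5 to 22.02 and 18.5 to 21.3 CPM, so both overlapped. At the mRNA entry, Mrps5 rose by 0.30 (adjusted p = 0.015) and Mrps24 had 0.091 (adjusted p = 0.52), with a pass under limma on FPKM (adjusted p of 0.039 and 0.042). Mrps12 of the decoding centre had 3.38 to 4.73 CPM in GFP and 4.83 to 6.07 CPM in CRE, and its log2 fold change of 0.34 (SE 0.17) did not pass (adjusted p = 0.12), but did so in 5 of 18 alternatives, among them library size alone (0.50, adjusted p = 0.025) and the length and GC offset (0.45, adjusted p = 0.037). Mrpl58, a release enzyme built into the large subunit, and Mrps30 had -0.071 and -0.0015 (adjusted p of 0.67 and 0.99).

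By origin, 9 of 46 proteins with a bacterial homologue rose (19.6%, beside 25.5% of all tested genes) and 4 fell (8.70%, beside 25.7%), with a median log2 fold change of 0.10. The other 32 have a systematic name that marks them as specific to mitochondria, a class that includes Mrps18a and Mrps18b, although they resemble S18, and Mrps36. Of these 32, 10 rose (31.2%) and 5 fell (15.6%), with a median of 0.013. The small subunit proteins of the second kind by structure, 10 in all, had 5 that rose (Mrps22, Mrps31, Mrps26, Mrps25 and Mrps23) and 1 that fell (Mrps18b). That share higher, 50%, was the highest among the groups by subunit and origin. Of 21 large subunit proteins of the second kind, 5 rose (23.8%) and 3 fell. With a bacterial homologue, 3 of 16 small subunit proteins rose and 1 fell, and 6 of 30 large subunit proteins rose and 3 fell. These groups are small, and the difference between them was not tested.

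Levels between genes were compared as FPKM, the deposited read number scaled to transcript length and library size. The median of the 78 members was 15.3 FPKM, and the range was 2.58 to 55.5. The cytosolic ribosomal protein genes had a median of 327.7 FPKM. Over all 6 libraries Mrps6 led with a mean of 55.5 FPKM, narrowly ahead of Mrpl30 with 55.2, and in GFP Mrpl30 was the higher of the pair. Mrps6 had 47.3 ± 6.71 FPKM in GFP and 63.8 ± 6.87 in CRE (SD, n = 3), but it shares exonic bases on the same strand with Slc5a3, an inositol transporter gene, so its reads may be divided between the genes. Mrpl30 (48.4 ± 5.08 and 62.0 ± 6.89 FPKM) and Mrpl17 (46.0 ± 1.99 and 56.9 ± 1.94 FPKM) did not differ from it beyond their spread. Mrps21 (37.3 ± 4.50 and 46.3 ± 5.25 FPKM) and Mrpl20 (34.0 ± 3.55 and 39.3 ± 0.25 FPKM) followed, and these 2 did not differ beyond their spread in GFP, whereas Mrpl17 and Mrps21 did. Mrps6 did not pass the count test (log2 fold change 0.27, adjusted p = 0.052), but did so in 12 of 19 fits, among them those without GFP replicate 2 (0.34, adjusted p = 0.030) or without CRE replicate 1 (0.35, adjusted p = 0.025), and by DESeq2 (0.27, adjusted p = 0.037).

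At the other end of the order stood Mrps35 (2.25 ± 0.24 FPKM in GFP and 2.91 ± 0.93 in CRE) and Mrps26 (2.18 ± 0.38 and 3.12 ± 0.20). Mrpl57 (2.92 ± 0.16 and 3.10 ± 0.25), Mrpl19 (3.002 ± 0.27 and 3.70 ± 0.54) and Mrps16 (3.55 ± 0.67 and 3.70 ± 0.38) came next. In GFP, Mrps26 and Mrpl57 differed by more than the sum of their SD, and the other neighbours in this order did not. The order of the members was much the same in both groups (Spearman rho of 0.93 across 78 genes, which share libraries and are not replicates). Mrps35 had a CRE over GFP ratio above 1 in FPKM (log2 ratio 0.37) and below 1 in scaled counts (-0.099), neither of which passed a test. The FPKM ratio rests largely on CRE replicate 3, as the CRE libraries were at 2.485 (replicate 1), 2.261 and 3.973 FPKM.

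**Figure D4:**
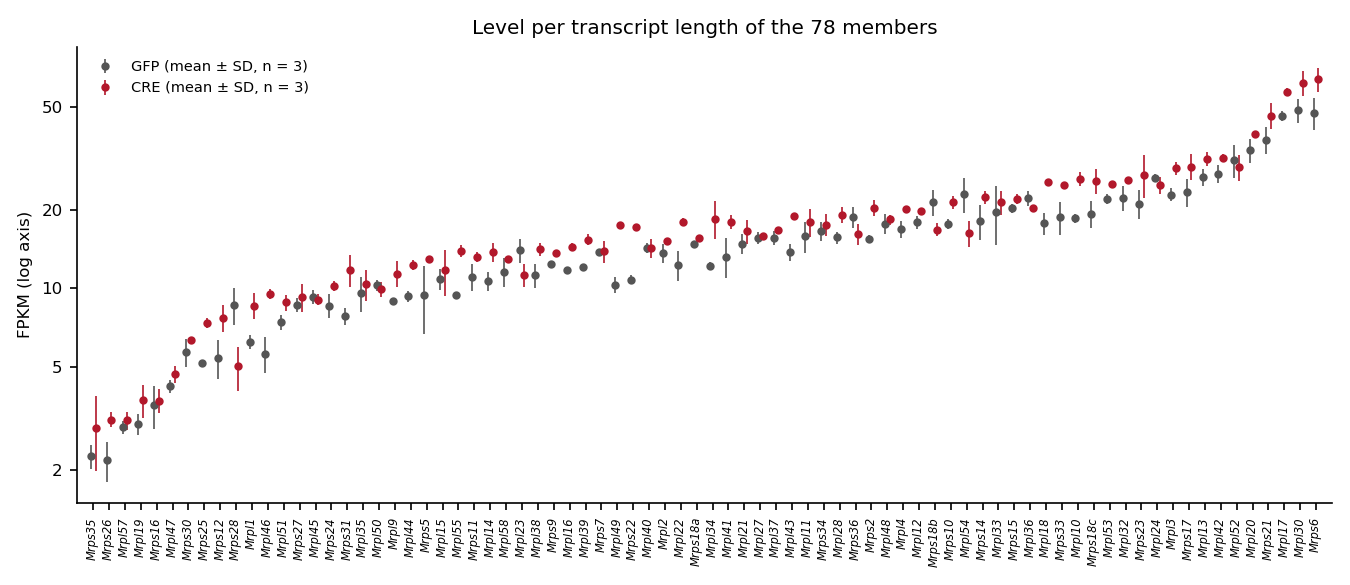
FPKM (y axis, log scale) of the 78 members in GFP and CRE as mean ± SD (n = 3), ordered by the mean over all libraries. Levels run from 2.58 FPKM for Mrps35 to 55.5 FPKM for Mrps6.

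The members have short transcripts. The median longest transcript had 1867 bases, beside 3482 bases over all tested genes, whereas GC content was alike (49.8% and 49.5%). Among tested genes with transcripts under 1000 bases the median log2 fold change was -0.075, and the 17 members of that length had 0.091, with 4 lower and 3 higher, where 28.9% of the tested genes of that length were lower and 14.9% higher. Within the set the log2 fold change ran with neither length (Pearson r of 0.10 and Spearman rho of 0.025 across 78 genes) nor FPKM (0.0010 and -0.032). The genes lie on 17 chromosomes, with 11 members on chromosome 11. A divergent neighbour that starts within 1000 bases was found for 18 members (23.1%, beside 10.1% of tested genes), and 17 of these neighbours were tested. Both partners fell in 1 pair (Mrpl54 and Apba3), the partners moved in opposite directions in 1 pair (Mrpl49 and Fau), the member alone passed in 3 pairs, the neighbour alone in 5 and neither in 7. Mrps34 is an example of the fourth kind, with 14.7 to 17.3 CPM in GFP and 13.9 to 16.3 CPM in CRE, while Eme2, which encodes part of a DNA repair nuclease and starts 29 bases away, rose from 16.8 ± 0.17 to 27.2 ± 0.41 CPM (SD, n = 3). Mrps34 also shares exonic bases with Nme3 on its own strand. Exons of another gene overlapped 33 members (42.3%, beside 37.1% of tested genes).

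Motif letters were searched on both strands in the 300 bases from 250 before to 50 after each RefSeq start. The ETS letters CCGGAAG occurred in 36.2% of the 69 member promoters, in 18.2% of 10120 promoters of tested genes and in 9.12% of all 27025 promoters. The NRF1 letters occurred in 18.8%, 10.5% and 4.78%, and the YY1 letters AANATGGCG in 15.9%, 5.30% and 2.51%. GGGCGG was found in 49.3%, 65.1% and 35.9%, CCAAT in 39.1%, 39.3% and 37.9%, and the E-box CACGTG in 7.25%, 10.2% and 7.24%. None of these 6 words contains another, although matches can lie over each other. Members with and without the ETS letters had median log2 fold changes of 0.091 and 0.095, and those with and without the NRF1 letters 0.12 and 0.091. The YY1 letters were found in 11 members, whose median was -0.044 beside 0.13 for the 58 without them. With and without the letters, the medians were 0.095 and 0.090 for GGGCGG, 0.035 and 0.11 for CCAAT, and -0.0044 and 0.10 for the E-box. Among the 19 promoters of members that rose, 7 held the ETS letters, 3 NRF1, 0 YY1, 10 GGGCGG, 6 CCAAT and 0 the E-box. Among the 7 of members that fell, the numbers were 1, 1, 1, 3, 3 and 1.

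A fixed list of regulators of nuclear genes for mitochondrial proteins covers some factors that read these motifs, but no SP or NF-Y gene. Of its 8 tested genes, 2 rose and 2 fell, or 25% in each direction, near the 25.5% and 25.7% of all tested genes. GABP, the ETS factor of many mitochondrial genes, had its DNA-binding subunit Gabpa higher (log2 fold change 0.19, SE 0.05, edgeR adjusted p = 0.0083), Gabpb2 lower (-0.29, SE 0.06, adjusted p = 0.0037) and Gabpb1 at -0.087 (adjusted p = 0.31). Gabpb2 lost the call with library size alone (-0.12, adjusted p = 0.13) and with limma on FPKM (-0.10 and -0.12, adjusted p of 0.30 with either pseudocount). Nrf1 was at 14.6 ± 1.13 CPM in GFP and 16.9 ± 1.15 in CRE (SD, n = 3). It did not pass (0.21, adjusted p = 0.074), but did so in 4 of 18 alternatives, which were the fit without GFP replicate 1 (0.26, adjusted p = 0.044), library size alone (0.38, adjusted p = 0.0047) and limma on FPKM with either pseudocount (adjusted p of 0.018 and 0.019). Yy1 (0.043) and Myc (0.055) did not pass either, with adjusted p of 0.45 and 0.61, but both did with library size alone (0.21 and 0.22, adjusted p of 0.0023 and 0.041) and with limma on FPKM. The coactivator gene Pprc1 fell by 0.41 (adjusted p = 0.00049) and the orphan receptor gene Esrra rose by 0.63 (SE 0.10, adjusted p = 0.00035). Ppargc1a had 5 to 15 reads in GFP and 5 to 9 in CRE, and Ppargc1b 1 to 3 and 5 to 7, too few to be tested.

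**Figure D5:**
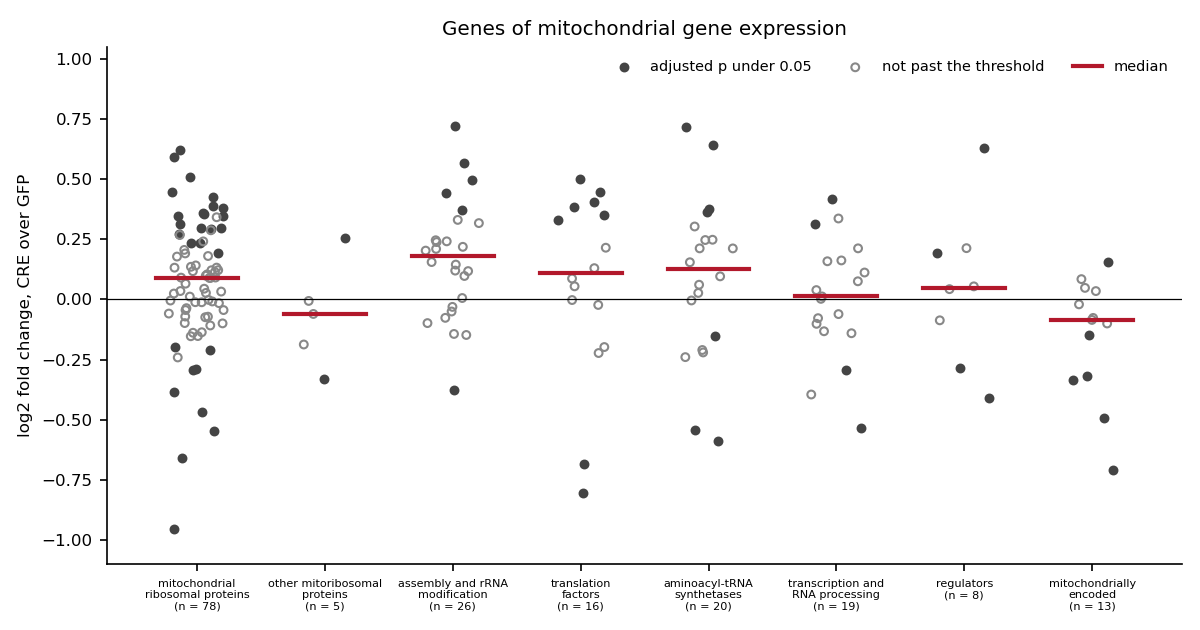
Log2 fold change of CRE over GFP (y axis) for each tested gene of the mitochondrial ribosome and of 7 related lists (x axis, n genes each), with the median as a line and genes past an adjusted p of 0.05 filled. Medians lie between -0.085 for the mitochondrially encoded genes and 0.18 for the assembly factors.

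Other genes needed for mitochondrial translation had calls in both directions too. Of 5 mitoribosomal proteins with other symbols, Ptcd3 rose by 0.26 (adjusted p = 0.0019) and Gadd45gip1 fell by 0.33 (adjusted p = 0.017), whereas Dap3 (-0.0060), Chchd1 (-0.060) and Aurkaip1 (-0.19) did not pass. Gadd45gip1 lost its call without GFP replicate 3, CRE replicate 1 or CRE replicate 3 (adjusted p of 0.061, 0.051 and 0.071), by DESeq2 (0.052), with library size alone (-0.17, adjusted p = 0.17) and with limma on FPKM (-0.14 and -0.17, adjusted p of 0.19 with either pseudocount), and Aurkaip1 passed without GFP replicate 2 (-0.26, adjusted p = 0.011). Among 26 assembly and ribosomal RNA modification genes, 5 rose (19.2%, beside 25.5% of all tested genes) and 1 fell (3.85%, beside 25.7%), with a median of 0.18. The methyltransferase gene Mrm2 (0.72), Mterf4 (0.57) and the GTPase gene Noa1 (0.50) rose most, and Rcc1l fell (-0.38), a call lost with library size alone (-0.21, adjusted p = 0.096) and limma on FPKM. Of 16 translation factors, 6 rose (37.5%) and 2 fell (12.5%). Gfm2, which takes part in ribosome recycling, rose by 0.50 (adjusted p = 0.00063), while its partner in recycling, Mrrf, fell by 0.69 (adjusted p = 0.00012) and the release factor gene Mtrf1 by 0.81 (adjusted p = 0.0055). Of 20 genes for enzymes that charge mitochondrial tRNA, 4 rose (20%) and 3 fell (15%). Mars2 (0.72) and Lars2 (0.64) for methionine and leucine rose, and Tars2 for threonine fell (-0.59).

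Among 19 genes of mitochondrial transcription and RNA processing, 2 rose (Trmt10c at 0.42 and Elac2 at 0.31) and 2 fell (Mterf2 at -0.54 and Hsd17b10 at -0.29), or 10.5% in each direction, beside 25.5% higher and 25.7% lower among all tested genes. Mterf2 lost its call without GFP replicate 2 or CRE replicate 2 (adjusted p of 0.055 with either), with library size alone (-0.37, adjusted p = 0.057) and with limma on FPKM (-0.15 and -0.18, adjusted p of 0.44 with either pseudocount), and Hsd17b10 in 8 of 18 alternatives, among them the fits without GFP replicate 3 or CRE replicate 1 or 3 (0.10, 0.095 and 0.057). The 13 protein genes on mitochondrial DNA, whose messages the ribosome translates, had 5 that fell (38.5%, beside 25.7%) and 1 that rose (7.69%, beside 25.5%). mt-Atp8 (-0.71), mt-Nd3 (-0.49) and mt-Co3 (-0.33) had the lowest values, and mt-Co1 rose by 0.15 (adjusted p = 0.0031). mt-Nd3 lost the call with the length and GC offset (-0.16, adjusted p = 0.072), and mt-Co3 with limma on FPKM (-0.17, adjusted p of 0.073 and 0.093). Their summed level was 35955 to 37387 CPM in GFP and 34879 to 36729 CPM in CRE, so the ranges overlapped. Neighbouring mitochondrial genes come from one precursor and mt-Atp8 shares bases with mt-Atp6, so their reads are not fully separate.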

How the data were processed

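Libraries of mouse cardiac fibroblasts (3 GFP and 3 CRE, with TGF-β in each) were analysed, grouped by their titles. According to the methods of the study, reads went through Trimmomatic, HISAT2 on GRCm38, HTSeq-count and Cufflinks. Versions and the strand setting are not given in the sources used here, and labels and methods name different library kits. The values used were of 2 kinds, raw counts deposited by the authors without normalization and FPKM deposited by the authors, scaled to transcript length and library size. Columns with the authors' group means, log2 fold change, p-value and FDR, which hold their own comparison, were not used as results.

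Counts were tested with edgeR 4.0.16 in R 4.3.3, with TMM scaling (factors 0.944 to 0.947 in GFP and 1.05 to 1.06 in CRE), filterByExpr (minimum count 10, minimum total 15) and a two-sided quasi-likelihood F test with Benjamini-Hochberg adjustment over 12862 genes. SE was derived from the log2 fold change and the F value. CPM uses the effective library size. A count of 0 would allow up to 3 counts, counting error only. An exact permutation test of 3 against 3 libraries cannot go below 0.1, so none is printed. Alternatives were RLE, library size alone, upper quartile, other filters, DESeq2 1.42.0, limma 3.58.1 (voom and log2 of FPKM plus 1 or 0.1), a length and GC offset, a replicate block, omission of each library in turn, another subunit assignment, summed FPKM and a threshold of 0.01. The count test was run on 8 simulated sets with 200 genes changed in each, far fewer than the 6583 called here. Those sets therefore cannot show which scaling is right for these libraries. The offset was run on simulated counts with a known length trend. Coordinates, lengths and overlaps come from GENCODE M21 (21973 of 22063 identifiers found). Of 5 pseudogenes named after a member there, 0 are in the table.

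The members and all gene lists were chosen with earlier results of these data known. Named genes are the 8 lowest and 8 highest log2 fold changes, the 5 highest and 5 lowest levels, the Mrps18 paralogs, members with a known place in the ribosome, and from other lists the 3 largest changes among called genes. Other names were chosen after values were seen. Figures were drawn with matplotlib 3.10.9.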

Additional observations from a re-analysis of the deposited data

How the results depend on the processing

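Across 19 fits, 3 members were lower (Mrps28, Mrpl54 and Mrps18b) and 12 higher in every one, and 23 passed in none. Scaling by library size alone gave 42 members higher and 3 lower with a median of 0.25, and 53 other genes of mitochondrial translation higher and 9 lower. Limma on FPKM gave 43 higher and 4 lower with either pseudocount, medians of 0.23 (plus 1) and 0.26 (plus 0.1), and 49 and 47 other genes higher and 7 lower. These settings lack the TMM factors, which differ between the groups. A threshold of 0.01 left 10 higher. Large minus small was -0.097 with the length and GC offset, -0.083 with limma on FPKM plus 0.1 and -0.080 by structure, where the ratio of summed counts, CRE over GFP, was 0.952 in place of 0.970. For the cytosolic genes, 2 in place of 1 were higher with library size alone. Whether replicate numbers pair the libraries is not given. Deviations from the group means correlated weakly between libraries of the same number (0.046, 0.18 and -0.018 for numbers 1, 2 and 3), which cannot settle it. With the replicate block 18 members were higher and 7 lower, Mrps30 was at 0.0012, and with the offset added Chchd1 was at 0.065, Mrpl12 at 0.049 and large minus small at -0.099. Without 1 library, 14 to 18 members were higher and 7 to 9 lower, the median was 0.060 to 0.12 (0.052 to 0.11 above all tested genes), large minus small -0.070 to -0.036 and cytosolic genes higher 1 to 2. For 3 lower and 6 higher members the call was lost in at least 1 of these fits.

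Over all 78 members, 25 changed sign in at least 1 alternative, 0 of the 28 that passed the test among them, and the cause was not tested. The values that follow are those of genes named in the report, members and others. With library size alone, limma on FPKM plus 1 and limma on FPKM plus 0.1, the values were 0.10, 0.10 and 0.11 for Chchd1, 0.16, 0.17 and 0.18 for Dap3, 0.076, 0.055 and 0.059 for Gabpb1, 0.15, 0.14 and 0.15 for Mrpl12, 0.15, 0.12 and 0.15 for Mrpl47, 0.091, 0.066 and 0.085 for Mrpl57, 0.091, 0.16 and 0.17 for Mrpl58, 0.054, 0.053 and 0.067 for Mrps16, 0.064, 0.064 and 0.068 for Mrps18a, 0.16, 0.14 and 0.16 for Mrps30, and 0.063, 0.24 and 0.32 for Mrps35. Apba3 was at 0.020 and 0.022 with limma on FPKM plus 1 and plus 0.1. Upper-quartile scaling gave 0.013 for Dap3, 0.0039 for Mrpl12, 0.011 for Mrpl47 and 0.018 for Mrps30, the offset 0.064 for Chchd1 and 0.048 for Mrpl12, voom 0.010 and the stricter filter 0.0031 for Mrps30. Without 1 library, ranges crossed 0 for Chchd1 (-0.14 to 0.027), Dap3 (-0.053 to 0.029), Mrpl12 (-0.053 to 0.034), Mrpl20 (-0.037 to 0.11), Mrpl47 (-0.060 to 0.036), Mrpl58 (-0.20 to 0.050), Mrps16 (-0.21 to 0.056) and Mrps30 (-0.061 to 0.099). Members had 57 to 1001 reads per library, and how far depth sets their SE was not tested.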
